A study of Mus musculus with 6 samples.

Results

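The keratins of the basal and suprabasal epidermis were followed across mouse skin taken at embryonic day 16.5 from embryos with a Tcfap2c mutation and from controls. All 10 probe sets that the platform annotation maps to exactly 1 of 8 keratin genes were taken, from 45037 probe sets and 18193 named genes in all. The genes were Krt5, Krt14 and Krt15 of the basal layer and Krt1, Krt10, Krt2, Krt77 and Krt78 of the spinous and granular layers. There were 3 mutant and 3 control samples, each hybridised to its own one-colour Affymetrix mouse array. Tcfap2c, now named Tfap2c, encodes the transcription factor AP-2 gamma. The labels give the mutant group as Tcfap2c mutant and the other as control, and name no allele, Cre driver, strain or litter for either group. The description field of the control samples also mentions the mutation, while titles, source names and the series design set them apart as controls. Because nothing places the samples in separate litters, p-values reflect only how much these 6 samples vary.

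Keratins build the intermediate filaments of epithelial cells. Each filament is made of heterodimers of a type I and a type II keratin, so the genes act in pairs. Proliferating basal keratinocytes make Krt5 (type II) with Krt14 (type I), and Krt15 is a further type I keratin of basal cells and of hair follicle progenitors. When a cell leaves the basal layer it switches to Krt1 (type II) with Krt10 (type I). Krt2, Krt77 and Krt78 are further type II keratins of suprabasal epidermis, and Krt2 is known as a late marker of the upper layers. AP-2 factors are known to bind the control regions of several epidermal keratin genes.

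The type I genes of the group lie in the keratin cluster of chromosome 11 and the type II genes in that of chromosome 15. In the mouse RefSeq annotation Krt1 has Krt2 and Krt77 as its direct neighbours. RefSeq promoter windows (GRCm38.p6), from 250 bases before to 50 bases after a transcript start, were found for 6 of the 8 genes and not for Krt1 and Krt15. The stretch from 50 bases before to 10 bases after the start is shown for 5 of them, 5′ to 3′ on the minus strand, because these keratins share an AT-rich box close to the start. Capitals mark the letters TATATA or GATAAAA, which were searched on the gene's strand after the windows had been read.

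Krt5, chr15:101712896-101712955: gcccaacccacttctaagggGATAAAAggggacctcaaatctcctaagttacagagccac

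Krt78, chr15:101954278-101954337: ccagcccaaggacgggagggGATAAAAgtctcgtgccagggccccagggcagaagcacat

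Krt10, chr11:99389355-99389414: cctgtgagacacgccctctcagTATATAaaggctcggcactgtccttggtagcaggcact

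Krt77, chr15:101869696-101869755: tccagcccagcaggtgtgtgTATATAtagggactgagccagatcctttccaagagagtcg

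Krt2, chr15:101818160-101818219: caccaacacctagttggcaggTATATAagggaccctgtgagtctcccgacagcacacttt

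Within 50 bases before the start, GATAAAA stood in Krt5 and Krt78 and in 0.332% of all 32851 RefSeq promoters. TATATA stood there in Krt10, Krt77 and Krt2 and in 1.35% of all promoters. TATAAA was found in Krt10 alone of the 6 windows, where it overlaps TATATA, and in 8.32% of all 300-base windows. The AP-2 motif GCCNNNGGC, which reads the same on both strands, was found in 0 of the 6 keratin windows and in 16.6% of all 300-base windows. The Krt14 window held none of these motifs and is not shown. These matches describe letters in a short window and are not binding sites.

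The values were linear MAS5 signals, 1 brightness value for each probe set, and each array had a median signal between 110.4 and 131.5. Mutant replicate 1 stood apart from the other 5 arrays. It correlated with the others at 0.94 on average, and each remaining array did so at 0.961 or more. The summed signal of 11 decidual, uterine and placental genes was 47221 in that sample and between 363 and 787 in the others. The sum was carried by Prl8a2 and Prap1. Of these 11 genes, 3 were highest and 3 lowest there, and 2 passed the filter on low values given below. The sum of 8 smooth muscle genes was 62241 there and between 8045 and 10583 in the others, and all 8 were highest in that sample. No marker was at 0 in every array. The sum of 6 leukocyte genes was also highest in that sample, at 14486 against 7184 to 9405. Of these 6 genes, 4 were highest there and 1 was lowest. The sum of 6 endothelial genes was lowest in that sample, at 3411 against 4102 to 4807, with 4 of the 6 lowest there. Differences between groups are therefore also given without mutant replicate 1. The part of these transcripts in the keratin signals was not tested. Fibroblast, keratin and skeletal muscle genes gave signal in all samples. The 8 fibroblast genes summed to between 122336 and 140003 and the 8 keratins to between 120924 and 181406 in every sample. The keratins are the genes studied here, so their sum is no independent marker of skin. The sum of 8 skeletal muscle genes lay between 86670 and 104770.

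None of the keratins passed the test for a difference between mutant and control skin. Of the 8 genes, 7 passed the filter on low values, which stood at a signal of about 114.5, and 0 of these 7 reached an adjusted p of 0.05 in limma, where 0.00444% of all 22518 tested probe sets did. At an unadjusted p under 0.05 the keratin count was also 0, where 3.42% of all probe sets passed. The samples of mutant and control skin overlapped for all 7 keratins, whereas 8.33% of tested probe sets showed no overlap. The median log2 difference (mutant minus control) was -0.085 over the 7 keratins and -0.025 over all tested probe sets. It was -0.22 over the 3 basal keratins, all of them negative, and 0.11 over the 4 suprabasal keratins tested, of which 3 were positive and 1 negative. With 1 sample left out, the basal median ranged from -0.45 (without mutant replicate 2) to 0.012 (without mutant replicate 1), and the suprabasal median from 0.011 (without mutant replicate 2) to 0.26 (without control replicate 1). In whole skin, a change in the number of keratinocytes and a change in keratin RNA per keratinocyte cannot be told apart.

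**Figure D1:**
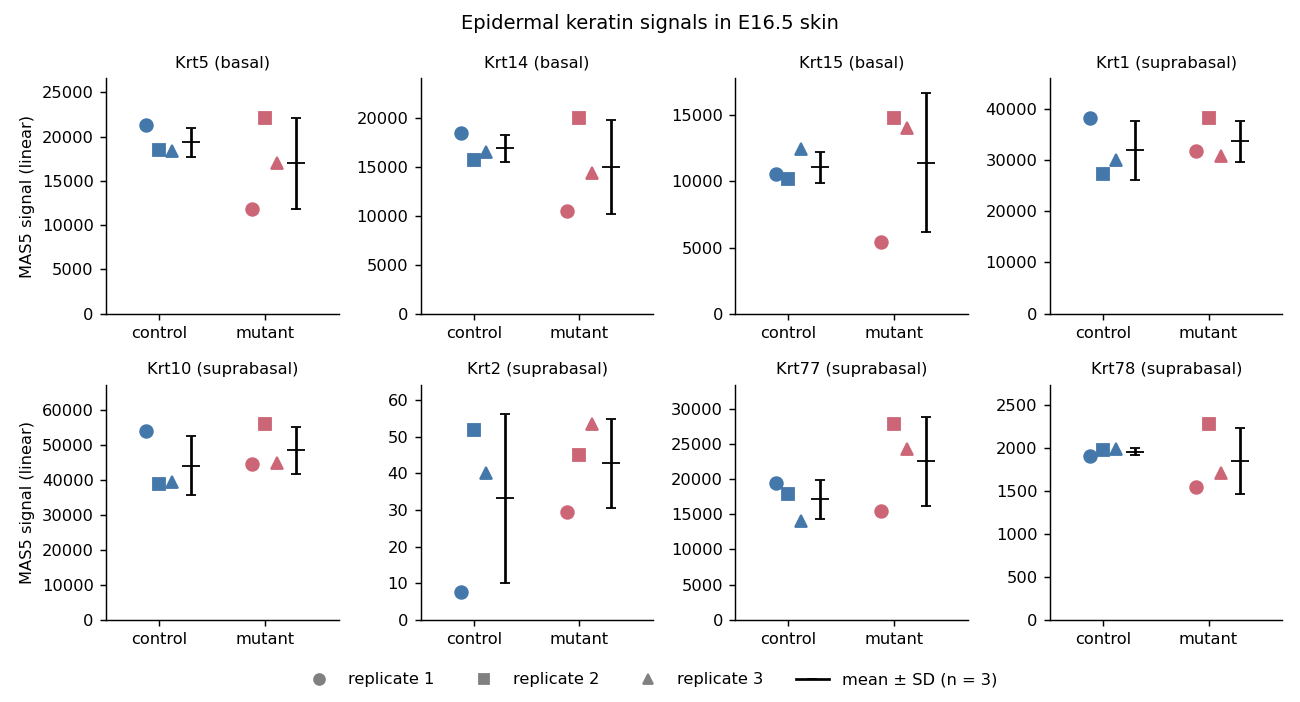
MAS5 signal (linear scale) of each of the 8 keratins in the 3 control and 3 mutant samples, 1 probe set per gene, with marker shape for the replicate number and the mean ± SD beside each group. Krt5, Krt14, Krt15 and Krt78 are lowest in mutant replicate 1. All 7 tested keratins lie above every control in mutant replicate 2, and Krt2 stays below 54 throughout.

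Among the basal keratins, Krt5, the type II partner of Krt14, had signals of 11821, 22129.5 and 16961 in mutant replicates 1, 2 and 3 and of 21249, 18472 and 18352 in control replicates 1, 2 and 3. Mutant replicates 1 and 3 lay below every control and mutant replicate 2 above every control. The group values were 16970.3 ± 5154 in mutant and 19358 ± 1639 in control skin (SD, n = 3 each). On the log2 scale Krt5 differed by -0.23 (SE 0.20, limma adjusted p = 1.0), with a 95% interval from -0.69 to 0.23, or from 0.619 to 1.17 times the control level.

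Krt14, the type I partner of Krt5, split the samples in the same way. The probe set with the highest mean gave 10490.1, 20085 and 14439 in mutant replicates 1, 2 and 3 and 18496, 15743 and 16530.3 in control replicates 1, 2 and 3. As for Krt5, mutant replicates 1 and 3 were below and mutant replicate 2 was above all controls. The log2 difference was -0.22 (SE 0.21), with an interval from -0.69 to 0.25. Another Krt14 probe set gave 8006, 16284 and 12296 in the mutant replicates, against 13111 to 15625 in controls, and a log2 difference of -0.32 (SE 0.23). A dimmer Krt14 probe set lay between 140 and 297 in mutant and between 222 and 276 in control samples, with a log2 difference of -0.19. Leaving out mutant replicate 1 gave -0.051 and 0.090 for these further probe sets. All 3 probe sets thus had mutant replicate 1 lowest and mutant replicate 2 highest. A further probe set is annotated to both Krt17 and Krt14 and was left out.

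Krt15, the keratin of basal and follicle progenitor cells, split the mutant samples most widely. Its signals were 5383, 14817 and 14030.2 in mutant replicates 1, 2 and 3, and 10565, 10195 and 12409 in control replicates 1, 2 and 3. Mutant replicate 1 was below every control, and the other 2 mutant samples were above every control. The highest mutant signal was 2.75 times the lowest, against 1.22 times among the controls. With all samples the log2 difference was -0.085 (SE 0.34), with an interval from -0.85 to 0.68, the widest of the 7 keratins. Without mutant replicate 1 it was 0.39 (SE 0.11, unadjusted p = 0.00726), and the adjusted p in limma was 0.462.

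Among the suprabasal keratins, the Krt1 and Krt10 pair of the spinous layer had small differences with intervals around 0. Krt1, the type II member, had signals of 31822, 38243 and 30756 in mutant replicates 1, 2 and 3 and of 38225.5, 27291.5 and 30017 in control replicates 1, 2 and 3. Mutant replicate 2 and control replicate 1 stood at nearly the same high value and the other 4 samples lay close together below them. The log2 difference was 0.086 (SE 0.15), with an interval from -0.24 to 0.41. Krt10, the type I member, had signals of 44371, 55935 and 44657 in the mutant and 53861, 38888 and 39345.5 in the control replicates in the same order. Again mutant replicate 2 and control replicate 1 were highest. The log2 difference of Krt10 was 0.14 (SE 0.15), with an interval from -0.20 to 0.49, or from 0.87 to 1.4 times the control level. The Krt10 probe set was the brightest of the array in 3 of 6 samples and never below place 10 of 45037.

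Krt77, a suprabasal type II keratin that neighbours Krt1, had the largest difference of the 7 with all samples. Without mutant replicate 2 it was at 0.19, exceeded in size by Krt5, Krt14, Krt15 and Krt78. Without mutant replicate 3 it was at 0.29, exceeded in size by Krt15 (-0.30). Without control replicate 3 it was at 0.23, exceeded by Krt5 and Krt14. The Krt77 signals were 15455, 27867 and 24237 in mutant replicates 1, 2 and 3 and 19462, 17910.0 and 14001 in control replicates 1, 2 and 3. Mutant replicates 2 and 3 lay above every control, and mutant replicate 1 lay within the control range. The group values were 22519.5 ± 6382 in mutant and 17124 ± 2814 in control skin (SD, n = 3 each). With all samples the log2 difference was 0.37 (SE 0.22, unadjusted p = 0.126), with an interval from -0.12 to 0.85 and an adjusted p in limma of 1.0. Without mutant replicate 1 it was 0.61 (SE 0.14, unadjusted p = 0.00178), or 1.53 times the control level, with an interval from 0.29 to 0.94. The adjusted p in limma was then 0.25, so Krt77 did not pass over all probe sets in that fit either.

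Krt78, a further suprabasal type II keratin, was much dimmer on its probe set and held the narrowest range in control skin. Its signals were 1552, 2285 and 1708 in mutant replicates 1, 2 and 3, and 1912, 1975 and 1990.4 in control replicates 1, 2 and 3. As for Krt5 and Krt14, mutant replicates 1 and 3 were below and mutant replicate 2 above every control. The log2 difference was -0.10 (SE 0.16), with an interval from -0.47 to 0.26. Krt2 gave 29.6, 45.2 and 53.6 in mutant and 7.50, 52.0 and 40.1 in control replicates 1, 2 and 3. All 6 values were below the filter, so Krt2 was not tested, and no fold change is given for it.

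**Figure D2:**
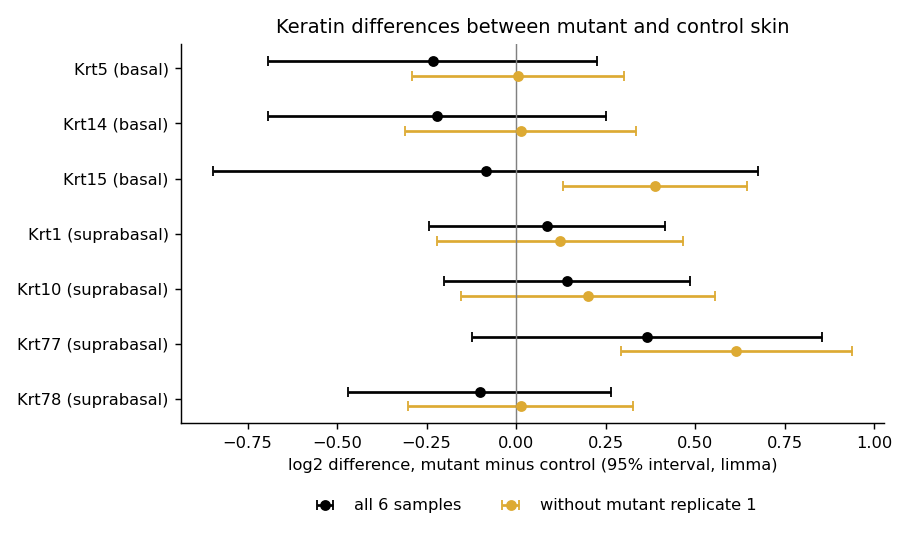
Log2 difference (mutant minus control) of the 7 tested keratins with the 95% interval from limma, for all 6 samples (black) and without mutant replicate 1 (yellow). With all samples every interval includes 0, and without mutant replicate 1 the intervals of Krt15 (0.13 to 0.64) and Krt77 (0.29 to 0.94) lie above it.

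Leaving out mutant replicate 1 turned the sign of 4 keratins. The differences of Krt5, Krt14 and Krt78 became 0.0045, 0.012 and 0.012, and that of Krt15 became 0.39. Krt1 and Krt10 were then at 0.12 and 0.20. With 1 probe set per gene, all 7 differences were then positive, with a median of 0.12 against -0.012 over all probe sets. A further bright Krt14 probe set stayed negative, at -0.051. In that fit 0 of 7 keratins reached an adjusted p of 0.05, where 0.173% of probe sets did. At an unadjusted p under 0.05, Krt15 and Krt77 passed, 2 of 7, where 7.15% of probe sets did and 3.26% were also higher in the mutant samples. These same 2 keratins no longer overlapped between groups, where 22.7% of all tested probe sets did not overlap and 10.7% of all tested were without overlap and higher in the mutant samples. Leaving out mutant replicate 2 instead moved Krt5 to -0.45 (unadjusted p = 0.0262) and Krt14 to -0.46 (unadjusted p = 0.019), with adjusted p in limma of 0.849 for both. The basal keratin differences thus rested on which mutant sample was included.

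Over the 7 keratins together the mutant samples, with mutant replicate 1 included, were more spread than the controls, though not for Krt1 and Krt10. The median SD of log2 signal over the 7 keratins was 0.44 between mutant and 0.15 between control samples, against 0.25 and 0.16 over all tested probe sets. For Krt1 these SDs were 0.17 between mutant and 0.25 between control samples, and for Krt10 they were 0.19 and 0.27. The mutant SDs include mutant replicate 1, and none was computed without it. Krt15 deviated from its control mean by -1.03, 0.43 and 0.35 in mutant replicates 1, 2 and 3. In mutant replicate 1 the basal keratins deviated from their control means by -0.71 (Krt5), -0.69 (Krt14) and -1.03 (Krt15) on the log2 scale. In the same sample Krt1 and Krt10 lay close to their control means, at 0.014 and 0.028, and Krt77 and Krt78 lay at -0.13 and -0.33. In mutant replicate 2 all 7 keratins were above every control, by 0.20 to 0.72 over the control means, where 26.5% of all tested probe sets were above every control. In mutant replicate 3, Krt77 and Krt15 were above every control, at 0.51 and 0.35 over the control mean. Krt5, Krt14 and Krt78 were below every control in mutant replicate 3, at -0.19, -0.23 and -0.20. Over all tested probe sets, 25.7% were above and 25.4% below every control in that sample.

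**Figure D3:**
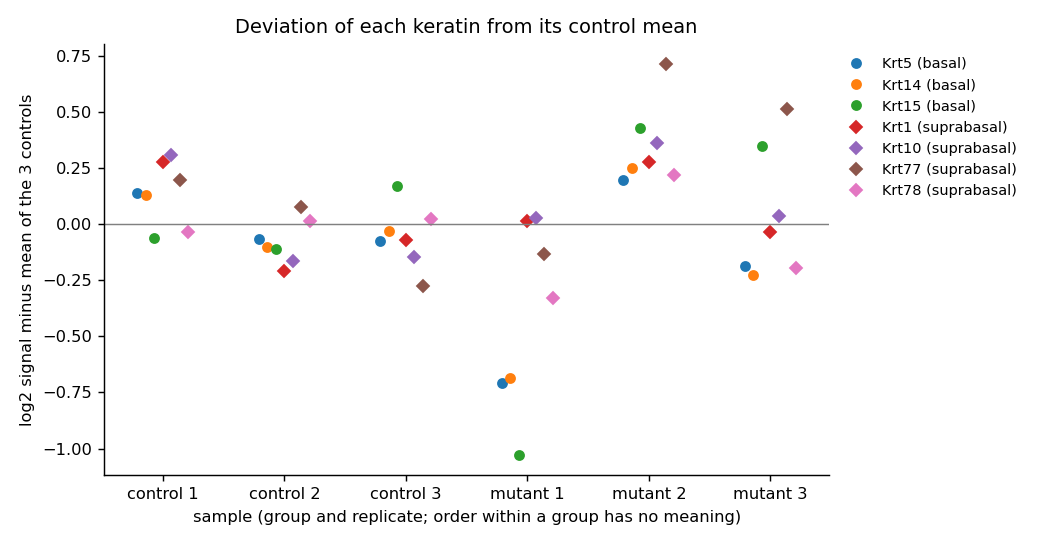
Log2 signal of each tested keratin minus the mean of the 3 controls, for each of the 6 samples, with circles for basal and diamonds for suprabasal keratins. In mutant replicate 1 the basal keratins lie between -1.03 and -0.69, Krt78 at -0.33 and Krt77 at -0.13, and Krt1 and Krt10 near 0. In mutant replicates 2 and 3 Krt77 is the highest of the 7.

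Other keratinocyte genes also had negative median deviations in mutant replicate 1. The median was -0.38 over 18 basal keratinocyte genes other than keratins, with 11 of 18 below every control. It was -0.40 over 25 suprabasal keratinocyte genes other than keratins, with 19 of 25 below every control. Over all tested probe sets the median in that sample was -0.046, and 38.3% lay below every control. In mutant replicate 2 the 2 medians were 0.075 and 0.16, and in mutant replicate 3 they were -0.0041 and -0.13. In mutant replicate 3, 5 of 18 basal and 14 of 25 suprabasal genes lay below every control. Above every control in that sample were 2 of 18 and 4 of 25. Over all tested probe sets 25.4% lay below and 25.7% above every control in mutant replicate 3. Lists were fixed with earlier results of these data known, and these medians are given as a description.

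The classical partner keratins had the most similar profiles across samples. The measure was the root mean square distance between log2 signals over the 6 samples, each gene centred on its own mean. Of 21 pairs among the 7 keratins, Krt5 with Krt14 was closest at 0.036 and Krt1 with Krt10 next at 0.052. The third pair, Krt14 with Krt78, was at 0.16, and the farthest was Krt15 with Krt1 at 0.48. Krt15 lay 0.30 from Krt14, although both are type I keratins of the basal layer. Without mutant replicate 1, a setting chosen after seeing the data, the partner pairs were again the closest, at 0.039 and 0.056. Krt14 with Krt78 was then at 0.095 and Krt15 with Krt1 at 0.24, and the farthest pair was Krt77 with Krt78 at 0.35. All points share the 6 arrays and their scaling, so the distances are a description.

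Of 11582 other named genes compared by the same distance, the 5 closest to Krt14 were Prrc2a (0.026), Nxt1 (0.046), Phlda3 (0.053), Ppp1r14c (0.058) and S100a16 (0.06). Krt5 was thus nearer to Krt14 than every one of these genes except Prrc2a. The 5 closest to Krt10 were Cox10 (0.057), Cox5b (0.057), Rabl6 (0.058), Kif24 (0.062) and Gnl2 (0.065), each of them farther from Krt10 than Krt1 was. Cox10 lay 0.049 from Krt10 when mutant replicate 1 was left out, and so nearer than Krt1.

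Differences of the other keratins ranged from -2.04 (Krt12) to 1.60 (Krt18, a keratin of simple epithelia). Krt18, named here after its values were seen, was at 0.92 without mutant replicate 1. Of 44 listed keratins of other epithelia, periderm and hair follicle, 38 were on the array and 18 passed the filter. None of the 18 passed over all probe sets, and 8 had an unadjusted p under 0.05, where 3.42% of all tested probe sets did. The median log2 difference was -0.11, with 7 positive and 11 negative. This median was -0.015 without mutant replicate 1, with 8 positive and 10 negative. The smallest p belonged to Krt12, a keratin best known from cornea, at 141, 116 and 44.4 in mutant and 516, 347 and 524.9 in control replicates 1, 2 and 3. The log2 difference of Krt12 was -2.04 (SE 0.34, limma adjusted p = 0.346). Without mutant replicate 1 it was -2.28 and passed (limma adjusted p = 0.0308), as did 0.173% of all tested probe sets. The mean mutant signal of Krt12 was 100.4, below the filter level of about 114.5, so Krt12 entered the test through its control signals. Krt8, a type II keratin of simple epithelia and periderm, differed by 1.19 (limma adjusted p = 0.571) and Krt79, a keratin of the follicle and its canal, by -1.15 (limma adjusted p = 0.571). Krt8 and Krt79 differed by 0.87 and -0.91 without mutant replicate 1. Krt12, Krt8 and Krt79 were among 6 of the 18 that did not overlap between groups, where 8.33% of all tested probe sets did not.

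A list for keratin filament attachment and bundling, which also holds Pnn and Trp53bp2, had 17 tested genes. Of these, 3 had a positive and 14 a negative difference, with a median of -0.15. None passed, where 0.00444% of all tested probe sets did, and 2 had an unadjusted p under 0.05, where 3.42% did. The median was -0.044 without mutant replicate 1, with 5 positive and 12 negative. Flg, the precursor of the keratin-bundling protein filaggrin, had signals of 2967, 647 and 252 in mutant and 11500.4, 8080 and 13151 in control replicates 1, 2 and 3. Its log2 difference was -3.70 (SE 0.69, limma adjusted p = 0.426). Without mutant replicate 1 it was -4.64 and passed (limma adjusted p = 0.000525), as did 0.173% of all tested probe sets. Rptn, a filaggrin-related protein, differed by -1.73 and Pof1b, an actin-binding protein of epithelial junctions, by -0.17. Their differences without mutant replicate 1 were -1.97 and -0.26. Rptn had signals of 110, 71.4 and 46.0 in mutant and 453, 230 and 248 in control replicates 1, 2 and 3. Every mutant value lay below the filter level of about 114.5, so Rptn entered the test through its control signals. In the same samples Krt1 and Krt10, whose filaments filaggrin bundles, differed by 0.086 and 0.14.

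Of the 18 basal keratinocyte genes other than keratins, 7 were positive and 11 negative (median -0.036). None passed at an adjusted p under 0.05, where 0.00444% of all tested probe sets did. At an unadjusted p under 0.05 the count was also 0, where 3.42% of all tested probe sets passed. Lamb3 and Lama3, chains of laminin-332, differed by -0.47 and -0.25, and Bcam, a laminin receptor, by -0.36. These differences were -0.36, -0.17 and -0.11 without mutant replicate 1. Of the 25 suprabasal keratinocyte genes other than keratins, 7 were positive and 18 negative (median -0.13), 0 passed and 4 had an unadjusted p under 0.05, where 3.42% of all tested probe sets did. Cdsn, the adhesion protein corneodesmosin, differed by -1.26 (limma adjusted p = 0.426), Casp14, a protease of the cornified layer, by -0.78 and Calml3, a calmodulin-like protein, by -0.54. The same differences without mutant replicate 1 were -1.29, -0.60 and -0.61. Without mutant replicate 1 the medians of these lists were 0.042 and 0.056, and again 0 genes passed.

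Of 33 tested transcription factors and chromatin regulators listed as acting on keratin genes, 10 were positive and 23 negative (median -0.093). None passed, and 1 of 33 had an unadjusted p under 0.05, a share near the 3.42% of all tested probe sets. This was Bnc1, basonuclin, a zinc finger protein of basal keratinocytes, at 645, 597 and 553 in mutant and 770.2, 780.4 and 780.7 in control replicates 1, 2 and 3. The mutant and control signals of Bnc1 did not overlap, as for 8.33% of all tested probe sets, and its log2 difference was -0.37 (SE 0.14). Ezh2, a histone methyltransferase of basal progenitors, and Ets1 differed by -0.34 and -0.26. The differences of these 3 genes without mutant replicate 1 were -0.42, -0.20 and -0.22. Tfap2c, named here outside the rule as the mutated gene, was at 0.12 (SE 0.14) on its probe set of highest mean. Without mutant replicate 1 Tfap2c was at 0.032. Whether that probe set reads the mutated stretch was not tested. Without mutant replicate 1 the median of the list was 0.042, with 21 positive and 12 negative, and 0 passed. In mutant replicate 1 alone, 23 of the 33 lay below every control, where 38.3% of all tested probe sets did.

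**Figure D4:**
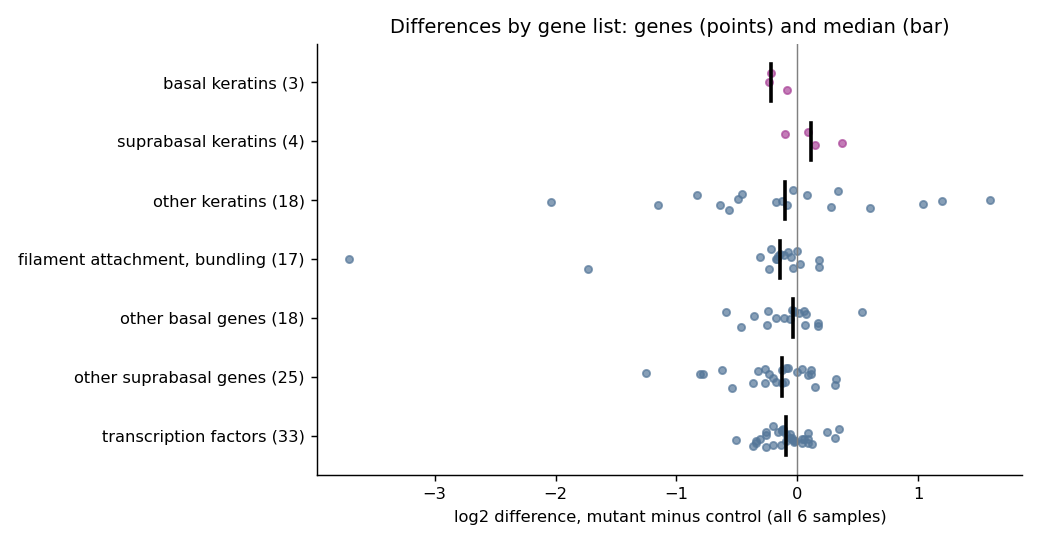
Log2 difference (mutant minus control, all 6 samples) of each tested gene (points) and the median (black bar) for the basal and suprabasal keratins and the 5 other gene lists, with the number of genes in brackets. The keratin points stay between -0.23 and 0.37, while Flg (-3.70) and Krt12 (-2.04) lie far to the left in their lists.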

How the data were processed

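Total RNA of skin from 3 mutant and 3 control embryos was extracted with Qiagen RNeasy and given a biotin label by the Affymetrix procedure, per the labels' protocols. The authors' deposited values are intensity signals on a linear scale, made with MAS5 per the submitters' processing notes. The trimmed mean (2% cut from either end) was 500.003 in every array, so arrays had been scaled before deposit. Signals were analysed as log2(signal + 24.48). The pseudocount was the 20th percentile of the table and understates differences of dim probe sets. Control probe sets (64) were removed, and the 22518 with a mean log2 above the median were tested. Names came from the platform annotation, updated by gene identifier against RefSeq. Where a gene had several probe sets, the one of highest mean stood for it. Mutant and control samples were compared in limma 3.58.1 under R 4.3.3, using lmFit and eBayes with a trend. Tests were two-sided and p-values were adjusted by Benjamini-Hochberg across the 22518 probe sets, at a threshold of 0.05. The fit was checked on simulated data. Plots were made in matplotlib 3.10.9. The members and lists were chosen with earlier results of these data known. All 8 keratins, and per list the genes past the threshold or else the 3 with the smallest p, were named by rule. The 5 genes nearest in profile to Krt14 and to Krt10 were named likewise. The promoter motifs TATATA and GATAAAA were chosen after the windows were read.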

Additional observations from a re-analysis of the deposited data

How the results depend on the processing

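The number of keratins past the threshold was 0 in all 15 other settings of the fit: pseudocounts of 1 and 100, no filter, a stricter filter, quantile normalization, median centring, no trend, array weights, the replicate block, and each sample left out. The lowest adjusted p of a keratin in limma was 0.213, for Krt77 with array weights. Over all probe sets, 1 passed with all samples, 106 with array weights and 8 with the replicate number as a block. Leaving out 1 sample gave 1 to 39, with 39 without mutant replicate 1, 2 without mutant replicate 2 and 3 without control replicate 2. Samples that share a replicate number deviated from their group means with correlations of -0.052, -0.073 and 0.11, so the number was not taken as a pairing, and the block changed no keratin call. Of 108 keratin values under alternatives 8 had the other sign, none past the threshold. With 1 sample left out, Krt5 ranged from -0.45 to 0.0045, Krt14 from -0.46 to 0.012, Krt15 from -0.34 to 0.39, Krt1 from -0.018 to 0.22 and Krt78 from -0.26 to 0.012. Krt15 was at 0.28 with array weights. Krt10 and Krt77 stayed positive in these settings (0.033 to 0.30 and 0.19 to 0.61). The median over the keratins was 0.00043 without a filter, where Krt2 enters, and -0.26 to 0.12 with 1 sample left out. The mean over probe sets could be formed for Krt14 only (-0.24). The causes were not tested. Signals of Krt2 lay below the filter, and 3 samples a group limit the precision.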
